A study of Oidiodendron maius Zn with 6 samples.

Results

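The gene models described here were those whose transcripts were most abundant when the fungus Oidiodendron maius Zn grew with bovine serum albumin (BSA). They were chosen by their measured levels. A member had at least 20 CPM (read counts per 1e6 gene reads) on BSA, and its level plus 0.5 CPM was at least 2 times that on peat and at least 2 times that on glucose. There were 108 members among 16703 gene models, or 0.647%. Because these values chose the members, the excess on BSA is given as a description with no test.

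Oidiodendron maius is an ascomycete that forms ericoid mycorrhiza in the roots of heathland plants, and the strain Zn comes from metal-polluted soil. In the acid soils where such plants grow, most nitrogen is held in organic matter. Ericoid mycorrhizal fungi are known for secreting enzymes that break down proteins and plant polymers, and BSA is a soluble protein often used to test growth on organic nitrogen. Peat is partly decayed plant material, and glucose is a simple sugar.

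Free-living mycelium was grown for 45 days on cellulose membranes over agar plates of modified Melin-Norkrans medium at pH 4.7. The plates were amended with BSA at 0.1 g per L, with peat at approximately 10 g dry weight, or with glucose at 1 g per L. The labels code the glucose libraries as NH4, and the recipe they give names glucose and ammonium phosphate in the basal medium. The sources used here did not say whether the BSA and peat plates also held these. The amounts of the 3 amendments were not matched to each other.

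The 75 bp reads came in 2 layouts, and a condition was sequenced once in each. Gene reads in paired-read libraries numbered 893061 for BSA, 1043870 for peat and 969553 for glucose. In single-read libraries they numbered 20008329 for BSA, 24690601 for peat and 22021177 for glucose. With the layout effect shared by the media taken out, the 2 libraries of a condition differed by about sampling noise, with a chi-square of 1.06 per degree of freedom over 10546 models. It was 35.8 or higher when libraries of different conditions were matched. The 2 libraries were therefore counted as 1 sample per condition, no p-value is given, and every interval covers counting error only.

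Levels are scaled CPM over the 2 libraries of a condition unless a layout is named. BSA was scaled by 0.907 and peat by 0.97, so that the median ratio to glucose was 1 over 7309 models at 20 CPM or more in all conditions. The files identify models by JGI protein IDs of the annotation Oidma1 and do not pair them with gene names. No product or role is therefore given for any member, and the lists of peptidases, transporters and other groups could not be filled.

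Among the 8080 models at 20 CPM or more on BSA, 414 (5.12%) were at least 2-fold higher on BSA than on glucose and 292 (3.61%) were at least 2-fold higher on BSA than on peat. Both limits were passed by the 108 members (1.34%). At 4-fold, 78 models (0.965%) passed against peat, 68 (0.842%) against glucose and 21 (0.26%) against both. A further 103 models passed both 2-fold limits but lay under 20 CPM on BSA. The members had a median of 76.7 CPM on BSA, 17.6 CPM on peat and 21.9 CPM on glucose, and their BSA levels spanned 21.0 to 38089 CPM. All 8080 models had a median of 63.6 CPM on BSA.

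On the scale of CPM plus 0.5, the median fold over peat was 3.29 (2.01 to 680) and the median fold over glucose was 3.10 (2.01 to 20.8). The smaller of a member's 2 folds was under 2.5 in 47 members, at least 3 in 36, at least 5 in 11 and at least 8 in 4. The glucose fold was the smaller one in 60 members and the peat fold in 48. On peat 49 members were themselves at 20 CPM or more, and on glucose 57 were. In 46 members the level was at least 20 CPM on all 3 media. Over all 8080 models the lower quartile was 36.0 CPM on peat and 37.4 CPM on glucose, so most passed 20 CPM on each. The rule itself holds members low on peat and glucose, so their counts are a description only.

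**Figure D1:**
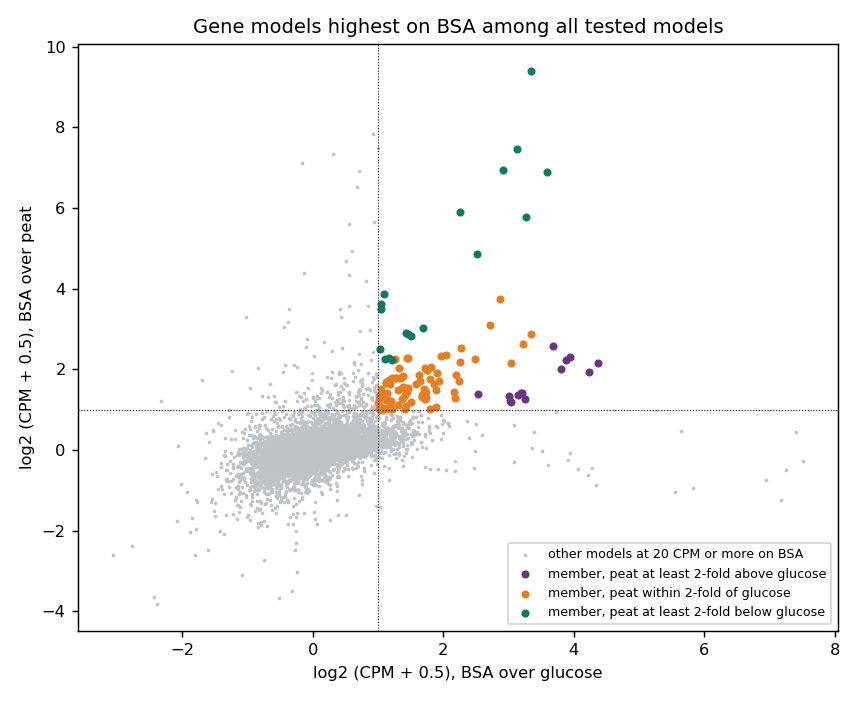
Each point is a gene model at 20 CPM or more on BSA, placed by its log2 fold of BSA over glucose (horizontal) and of BSA over peat (vertical), both on CPM plus 0.5; dotted lines mark 2-fold. The 108 coloured members fill the upper right corner by construction, those lower on peat than on glucose (green) reach up to 680-fold over peat, and those higher on peat (purple) reach farthest right among members, to 20.8-fold over glucose.

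The limit fell within a continuous range of values. Just inside it, model 28241 had 42.0 and 43.3 CPM in the paired-read and single-read BSA libraries, 14.8 and 21.6 CPM on peat, and 23.7 and 20.8 CPM on glucose. Model 28061, also just inside, had 295 and 313 CPM on BSA, 156 and 155 CPM on peat, and 89.7 and 89.3 CPM on glucose. Their smaller folds were both 2.01. Just outside it, model 141056 had 276 CPM on BSA, 1.04 CPM on peat and 138 CPM on glucose, which gave folds of 179 over peat and 1.99 over glucose. Model 106840, the next outside, had 48.0 CPM on BSA, 13.4 CPM on peat and 24.0 CPM on glucose, with a smaller fold of 1.98. Exact 95% intervals of both plain ratios lay wholly above 2 for 83 of the 108 members, and in the other 25 at least 1 interval reached down to 2. These intervals use the same reads that chose the members, so the count describes distance from the limit and is not a test.

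The ratio of peat to glucose was not itself a limit of the rule, but it is the quotient of the 2 folds that were. The choice of members can therefore widen its spread, and the shares beside all 8080 models are a description only. By this comparison the members fell into 3 classes. Peat was at least 2-fold higher than glucose in 14 members (13.0%), within 2-fold in 76 (70.4%) and at least 2-fold lower in 18 (16.7%). Among all 8080 models, 231 (2.86%) were at least 2-fold higher on peat and 240 (2.97%) were at least 2-fold lower. At 4-fold, 2 members were higher and 10 were lower on peat, against 42 (0.52%) higher and 57 (0.705%) lower among all 8080. The median log2 ratio of peat over glucose was -0.09 in the members and within 0.01 of 0 in all 8080 models.

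**Figure D2:**
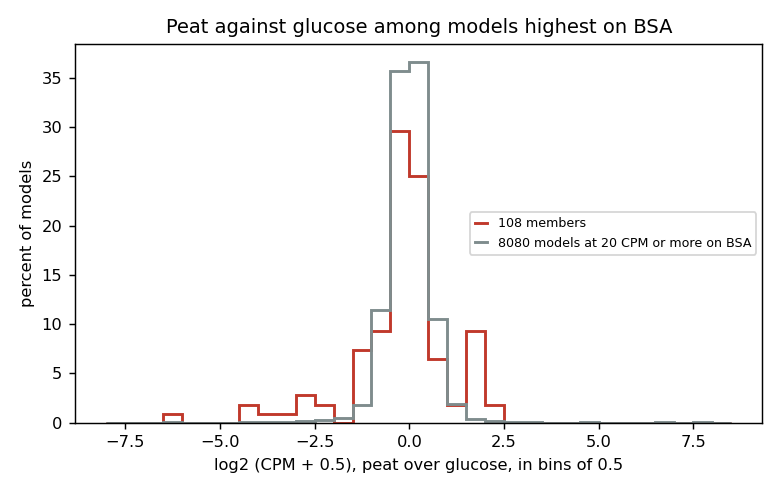
The percent of models is drawn in bins of the log2 ratio of peat over glucose, for the 108 members (red) and for all 8080 models at 20 CPM or more on BSA (grey). The members have a second peak at bins of 1.5 to 2.5 and a long tail down to about -6, beside a centre near 0.

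Of the 14 members higher on peat than on glucose, 7 were far more abundant than all other members. They had at least 5000 CPM on BSA, a limit chosen after their values were seen. The next member, 21852, had 1618 CPM on BSA. The leading model, 208821, of 852 nt, had 38093 and 38089 CPM in the paired-read and single-read BSA libraries, 15352 and 15057 CPM on peat, and 4805 and 4724 CPM on glucose. The 2 layouts gave nearly the same level, and the 3 conditions did not overlap. It was the model with the most reads of all 16703 on BSA. Its plain ratio of BSA to peat was 2.53 (95% interval 2.52 to 2.54), of BSA to glucose 8.06 (8.01 to 8.11) and of peat to glucose 3.19 (3.17 to 3.21).

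The second, 139570, of 459 nt, had 11944 and 16605 CPM on BSA, 5324 and 7142 CPM on peat, and 1521 and 2042 CPM on glucose. The third, 46664, of 411 nt, had 5024 and 12409 CPM on BSA, 2277 and 5141 CPM on peat, and 567 and 1307 CPM on glucose. In 46664 the paired-read BSA level lay below the single-read peat level, so its conditions separated only within a layout. Model 139577, of 204 nt, had 4214 and 8300 CPM on BSA, 1757 and 3207 CPM on peat, and 491 and 936 CPM on glucose.

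Model 111751, of 246 nt, had 4558 and 7411 CPM on BSA, 1971 and 2783 CPM on peat, and 551 and 803 CPM on glucose. Model 139572, also of 246 nt, had 4650 and 7397 CPM on BSA, 1890 and 2777 CPM on peat, and 539 and 807 CPM on glucose. Model 46665, the shortest member at 150 nt, had 1155 and 5235 CPM on BSA, 569.9 and 2304 CPM on peat, and 162 and 637 CPM on glucose. In 46665 the layouts differed by more than some of the media did, and its paired-read peat level lay below its single-read glucose level. Within each layout all 7 kept the order BSA, peat, glucose.

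The 7 models had closely similar ratios. BSA was 2.27- to 2.66-fold above peat and 8.06- to 9.48-fold above glucose in each of them, and peat was 3.19- to 3.94-fold above glucose. They were the only models of the 8080 whose ratios of BSA to peat and of BSA to glucose both lay within 1.3-fold of those of 208821, and this likeness was noted after their values were seen. Within 1.5-fold there were 8 models, and within 2-fold there were 28, of which 18 were members. Of the BSA reads, 100% in 111751, 100% in 139572, 75.3% in 139577 and 8.64% in 139570 also matched another model. The share was 0% in 208821, 46664 and 46665. If reads were shared among the 7, their ratios are not 7 separate observations, and this was not tested.

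Per kilobase of model the same 7 held ranks 1 to 7 among all models on BSA, at 29424 to 44706 CPM per kb. On peat they held ranks 1 to 4 and 6 to 8, and on glucose they lay between ranks 4 and 17. The highest other model on BSA was 139563, a model of 153 nt named after its values were seen, with 12496 CPM per kb. The ranks of the 7 use both layouts summed and include shared reads. In the paired-read BSA library 139563 had 2002 CPM, above the 1155 CPM of 46665, of 150 nt. Models 111751 and 139572 had 0 unique reads, so they hold no rank on unique reads alone. The highest of the other 101 members had 878 CPM per kb on BSA and held rank 77. The best rank of the other 101 members was 484 on peat and 341 on glucose. Per kilobase, the abundant set therefore stood apart from the other members on each medium, including glucose, where it was lowest. By CPM the sets overlapped on glucose, where 46665 had 617 CPM and member 21852 had 699 CPM. On BSA the separation by CPM followed from the limit of 5000 CPM that defined the set.

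**Figure D3:**
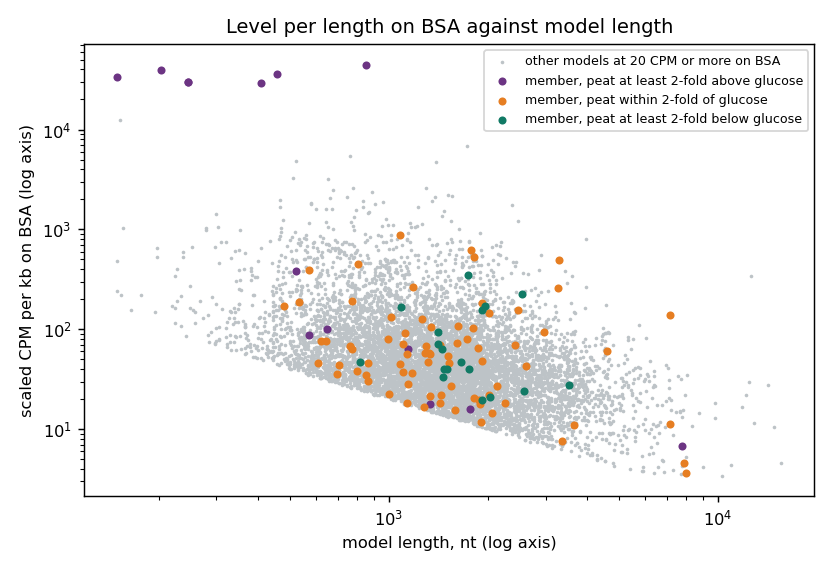
The level per kilobase on BSA is plotted against model length, both on log axes, for members coloured by their peat class and for other models at 20 CPM or more on BSA (grey). The 7 abundant members lie at 29424 to 44706 CPM per kb and at 150 to 852 nt. With both layouts summed and shared reads included, they lie above every other model. The sloping lower edge is the 20 CPM minimum.

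In the single-read libraries these 7 models took 8.66% of gene reads on BSA, 3.73% on peat and 1.13% on glucose. In the paired-read libraries they took 6.32% on BSA, 2.83% on peat and 0.864% on glucose. The other 101 members took 1.50% of single-read gene reads on BSA, 0.46% on peat and 0.544% on glucose. By read number, most of the members' share on BSA lay in these 7 models. Their peat share was above their glucose share in both layouts, and in the other 101 members the peat share was the lower one. The sources used here did not say how reads that match more than 1 model were counted. If such reads were counted for each model they match, the summed shares of the 7 may be too high.

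**Figure D4:**
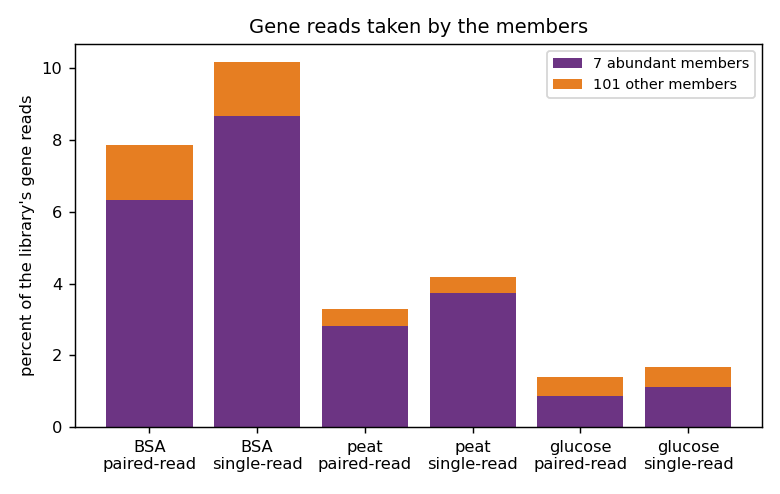
Stacked bars give the percent of each library's gene reads that fell on the 7 abundant members and on the 101 other members, without rescaling. The abundant members took 6.32% and 8.66% of reads in the 2 BSA libraries, 2.83% and 3.73% in the peat libraries, and 0.864% and 1.13% in the glucose libraries. Reads that match more than 1 model may be counted in more than 1 of the 7.

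The levels of the short abundant models depended on read layout and on how shared reads were counted. The paired-read level was 22.1% of the single-read level on BSA in 46665, 40.5% in 46664 and 50.8% in 139577, and the percentages on peat and glucose were similar in each (24.7% and 25.4% in 46665). Members over 500 nt had a median of 105% on BSA. Member 21671, of 482 nt and outside the abundant set, had 101%. The non-member 139563, of 153 nt, had 2002 and 1908 CPM in the paired-read and single-read BSA libraries. Whether model length sets this gap was not tested. Models 111751 and 139572 had 0 unique reads in all 6 libraries, so every read assigned to them also matched another model. In 139577 75.3% of the BSA reads were shared and in 139570 8.64%, so the levels of these 4 are uncertain one by one. With unique reads alone, the log2 ratio of BSA over peat was 1.21 in 139570 and 1.42 in 139577, and over glucose it was 3.01 and 3.24. Without the single-read BSA library, the log2 ratio of BSA over peat on CPM plus 0.5 turned to -0.050 in 46664 and -1.0 in 46665. It stayed above 0 but fell short of 2-fold in 139577 (0.37), 111751 (0.68), 139570 (0.71) and 139572 (0.71), and only 208821 kept the limit, at 1.29. The ratio of BSA over glucose then also missed 2-fold in 46665 (0.85). Within the paired-read libraries, where layouts are not mixed, the log2 ratio of BSA over peat was 0.97 in 46665 and between 1.10 and 1.27 in the other 6. Over 1% of BSA reads were shared in 5 members (4.63%), against 37 of all 8080 models (0.458%).

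The other 7 members higher on peat than on glucose were far less abundant than these. Their medians were 52.4 CPM on BSA (23.7 to 199.5), 11.3 CPM on peat and 2.83 CPM on glucose (1.39 to 33.9), and BSA was 5.81- to 20.8-fold above glucose on CPM plus 0.5. Model 51169, of 1146 nt, had 72.8 and 72.6 CPM on BSA, 22.7 and 18.3 CPM on peat, and 4.13 and 3.36 CPM on glucose. Its plain ratio was 3.92 over peat (3.53 to 4.37) and 21.4 over glucose (17.0 to 27.2). Model 39626, of 7794 nt, had 53.1 and 52.3 CPM on BSA, 10.9 and 11.3 CPM on peat, and 4.13 and 1.95 CPM on glucose. Its plain ratio was 4.64 over peat (4.06 to 5.31) and 25.6 over glucose (19.1 to 35.1). These 2 had the highest ratios of peat to glucose among the members, 5.46 and 5.53, and the conditions did not overlap in either. For 39626 the size rests on the single-read glucose library. On CPM plus 0.5 its log2 ratio over glucose was 4.38, against 3.49 in the paired-read libraries alone and 3.51 without the single-read glucose library, and its paired-read log2 ratio of peat over glucose was 1.29.

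The 18 members lower on peat than on glucose had medians of 85.0 CPM on BSA, 7.63 CPM on peat and 21.9 CPM on glucose. Their folds of BSA over peat ran from 4.72 to 680, with a median of 11.7. In 6 of them, of 1410 to 1926 nt, BSA was over 50-fold above peat, and the peat level was at most 1.20 CPM. These 6 were transcribed on BSA at 58.6 to 612 CPM and on glucose at 4.44 to 59.7 CPM, so of the 3 media it was peat on which they were close to undetected.

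Model 181057 was the most abundant of the 6. It had 631 and 611 CPM on BSA, 1.98 and 0.334 CPM on peat, and 48.5 and 60.2 CPM on glucose. Its plain ratio was 1528 over peat (831 to 3187), and 10.3 over glucose (9.69 to 10.8). Glucose was 149-fold above peat. The ratio over peat rests on few peat reads, and on CPM plus 0.5 it was 9.41 on the log2 scale over both layouts and 7.95 in the paired-read libraries alone.

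Model 35134 had no read on peat. It had 65.4 and 58.3 CPM on BSA, 0 and 0 CPM on peat, and 4.13 and 4.45 CPM on glucose. BSA was at least 488-fold above peat when 3 reads were allowed over the 2 peat libraries together, and 13.2-fold above glucose (10.8 to 16.4). The smaller fold of 35134 was the largest of all members.

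Models 55538 and 172846 had the same pattern. Model 55538 had 262 and 301 CPM on BSA, 0 and 1.25 CPM on peat, and 33.0 and 33.9 CPM on glucose. Model 172846 had 77.8 and 70.1 CPM on BSA, 0 and 0.835 CPM on peat, and 8.25 and 6.81 CPM on glucose. The plain ratio over peat was 249 (174 to 370) in 55538 and 87.9 (56.7 to 144) in 172846, and over glucose it was 8.84 and 10.2. On CPM plus 0.5 the log2 ratio over peat was 7.46 in 55538 and 5.77 in 172846, and it was 8.99 and 7.24 in the paired-read libraries alone, where neither had a peat read. Models 60920 and 136373 completed the 6, with 100.1 and 91.5 CPM on BSA, 0.321 and 1.04 CPM on peat, and 12.9 and 18.7 CPM on glucose.

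**Figure D5:**
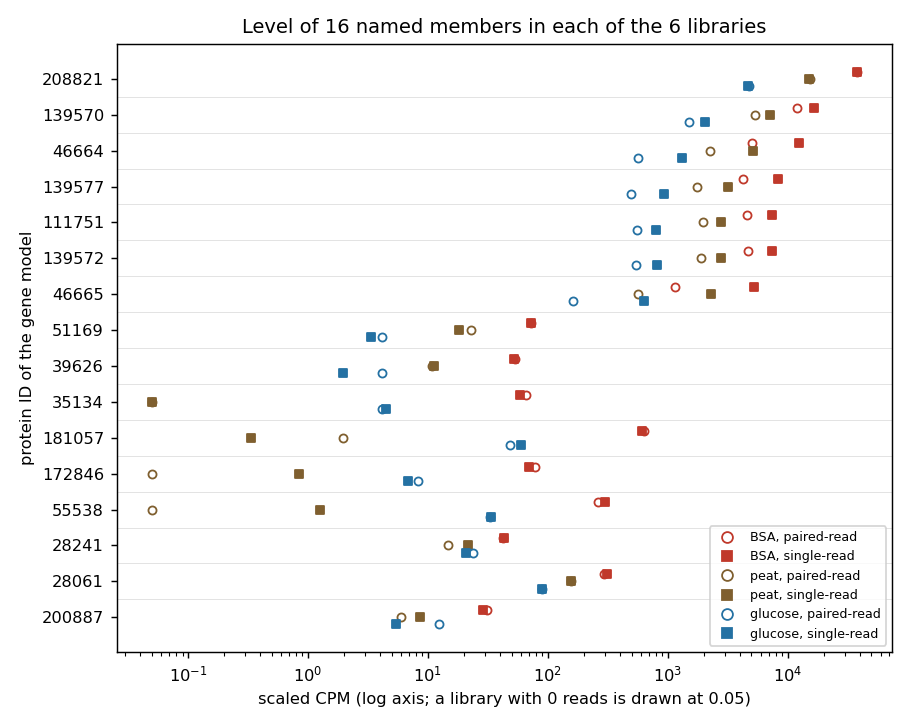
The level of 16 named members is drawn for each of the 6 libraries on a log axis, with open circles for paired-read and filled squares for single-read libraries and 0 reads drawn at 0.05. BSA (red) is rightmost in each layout for every member drawn; peat (brown) lies between BSA and glucose (blue) in the 7 abundant members and below glucose in 35134, 181057, 172846 and 55538.

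The 76 members with peat within 2-fold of glucose were the largest class. They had a median of 72.4 CPM on BSA, and their median fold was 2.93 over peat and 2.72 over glucose. A few of them, named after their values were seen, had much larger folds. Model 146943, of 2465 nt, had 412 and 381 CPM on BSA, 51.4 and 43.6 CPM on peat, and 56.7 and 57.7 CPM on glucose. Model 129528, of 1725 nt, had 109.9 and 138 CPM on BSA, 14.8 and 21.8 CPM on peat, and 9.28 and 14.4 CPM on glucose. The plain ratio in 146943 was 8.70 over peat (8.17 to 9.28) and 6.63 over glucose (6.25 to 7.04), and in 129528 it was 6.36 over peat (5.79 to 6.99) and 9.62 over glucose (8.57 to 10.8).

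The 2 most abundant of this class differed in their folds, and both are named after their values were seen. Model 21852, of 3303 nt, had 1773 and 1611 CPM on BSA, 803 and 795 CPM on peat, and 703 and 699 CPM on glucose. Model 109038, of 1776 nt, had 963 and 1101 CPM on BSA, 265 and 300.3 CPM on peat, and 218 and 240.3 CPM on glucose. Model 21852 was 2.04-fold above peat and 2.32-fold above glucose by plain ratio, and 109038 was 3.67-fold above peat and 4.58-fold above glucose. In each of the 2 layouts BSA stood above the other media, and peat stood slightly above glucose.

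Members were of ordinary length for the most part, with a median of 1420.5 nt against 1459 nt for all 8080 models. Short and very long models were both more frequent among them. Models of up to 500 nt made up 7 members (6.48%) against 276 of all 8080 (3.42%). Apart from 21671, of 482 nt, these short members all belonged to the abundant set, in which some reads matched more than 1 model. Models over 7000 nt made up 5 members (4.63%) against 40 of all 8080 (0.495%). The size of this excess depended on the limit. Over 5000 nt the same 5 members (4.63%) stood against 147 models (1.82%). Over 3000 nt it was 11 members (10.2%) against 793 models (9.81%). The longest member, 200887, of 8013 nt, had 30.9 and 29.0 CPM on BSA, 5.93 and 8.56 CPM on peat, and 12.4 and 5.45 CPM on glucose. Its log2 ratio over glucose was 2.24, but 1.24 in the paired-read libraries alone and 1.20 without the single-read glucose library. Long models as a group were higher on BSA than on glucose, with a median log2 ratio of 0.75 over the 40 and 13 of them (32.5%) past 2-fold, whereas their median log2 ratio of BSA over peat was 0.07. With the length trend removed, 39626, 170991 and 200887 stayed members and 101951 and 157986 did not. The part of length in these results was not tested further.

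Some members were neighbours in the order of protein IDs, which is not a genome position. With no other model between them, there were 3 such runs that held 7 members: 139570, 139572 and 139577, then 46664 and 46665, then 39626 and 39631. So 5 of the 7 abundant models stood in 2 runs. In 139570, 139572 and 139577, 8.64%, 100% and 75.3% of the BSA reads matched more than 1 model, so these may not be separate observations. No such count of runs was made for all models, so the number of runs is a description only. After 39631 came 39633, named after its values were seen, with 11.1 CPM on BSA, 1.68 CPM on peat and 0.957 CPM on glucose, a model under the 20 CPM minimum. Before 139570 came 139563, with 1912 CPM on BSA, 1956 CPM on peat and 340 CPM on glucose. Its ratio of BSA to glucose was 5.62, and BSA and peat were about equal. Model 141056, just outside the limit, directly preceded member 141058, which had 38.0 CPM on BSA, 2.92 CPM on peat and 18.2 CPM on glucose, so both were low on peat.

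In each layout by itself BSA was the highest medium in all 108 members. Both layouts entered the choice of members, and the single-read libraries held most of the summed reads. The single-read result was therefore largely fixed by that choice. The single-read libraries alone gave 105 members, all among the 108. The paired-read libraries alone gave 136, of which 82 were shared. The 26 members missed by the paired-read libraries had a median of 32 paired reads on BSA, against 72 in the members they kept. Folds from the 2 layouts lay within 1.3-fold of each other in 68 members over peat and in 73 over glucose. The largest gaps were 2.47 on the log2 scale over peat in 18614, which had 1 paired read there, and 2.22 over glucose in 62266, which had none.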

How the data were processed

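RNA of Oidiodendron maius Zn mycelium was sequenced in 6 libraries. The authors deposited, per the file headers, unique and total gene read counts and RPKM for 16703 gene models; trimming, aligner and counter were not given in the sources used here. RPKM, deposited by the authors, served only to recover each model's length. The members, lists and limits were chosen with earlier results of these data known. Total counts were summed over the 2 libraries of a condition, expressed as CPM of the condition's sum, and rescaled. The pseudocount was 0.5 CPM. Ratios carry exact Clopper-Pearson 95% intervals, and a condition with 0 reads was given 3 reads for a bound. The named models were those with the largest smaller fold, the highest BSA level, the extreme peat to glucose ratios, the most shared reads, the longest ID run, the nearest to the limit, and the shortest and longest; any other was named after its values were seen. The 15 gene lists could not be filled. Alternatives used edgeR 4.0.16 and DESeq2 1.42.0 (R 4.3.3) for scaling and fitted folds. The code was tested on simulated data (Python 3.11.15, pandas 2.3.3, scipy 1.17.1).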

Additional observations from a re-analysis of the deposited data

How the results depend on the processing

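The number of members was 81 without rescaling, 107 with TMM factors, 126 with DESeq2 size factors, 105 with unique reads (which left no value for 111751 and 139572) and 120 with the length trend removed. With the read layout as a replicate block in edgeR it was 110, of which 107 were shared with the 108. With a library left out it ranged from 107 to 122, and without the single-read BSA library (BSA replicate 2) 84 were shared. It moved by over 1.5 times with a minimum of 50 CPM (69) or no minimum (211, with 35 at 4-fold), and with a fold limit of 1.5 (322) or 3 (36). With a pseudocount of 5 CPM, 11 models were at least 4-fold higher on BSA than on both media. The chi-square between libraries of a condition was 1.94 per degree of freedom without removal of the layout effect. Without the single-read BSA library, the log2 ratio of BSA over peat was -0.050 in 46664 and -1.0 in 46665, and over all single omissions it reached 2.42 and 3.16 (without the single-read peat library). Without the single-read glucose library, the log2 ratio of BSA over glucose was 4.41 in 46664, 4.96 in 46665 and 4.05 in 139577. These settings set paired reads against summed layouts, and these 2 models had 40.5% and 22.1% of their single-read level in paired reads. The median log2 ratio of peat over glucose in the members stayed between -0.18 and -0.02. Depth limits the low values: with 1 sample per condition no spread between cultures can be given.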
